A study of Mus musculus with 32 samples.

Results

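The 9 genes followed here, Bdnf, Gdnf, Ntf3, Ntf5, Ngfr, Gfra1, Sox10, Gap43 and Jun, are neurotrophic factors, their receptors and genes of the repair Schwann cell. They were taken by symbol from the 33397 genes of the table, and all 9 were among the 22071 genes that passed the filter on low values, also on the 0 d libraries alone. RNA was sequenced from gastrocnemius (GAS) muscle, the large calf muscle, of male C57BL/6 mice (C57BL/6J in the study's methods) aged 6 to 8 weeks, in which a small section of the left sciatic nerve had been removed. There were 32 libraries, 4 at each of 0, 1, 3, 5, 7, 14, 21 and 28 d after the transection. The labels list sciatic nerve transection for every day, 0 d included, while the study's methods describe a sham operation without transection. The 0 d libraries are the reference of every comparison. Their columns are named C with a number and no day, and were taken as 0 d because each other day has columns that name it, so all changes from 0 d rest on that inference. The operation itself cannot be told apart from the nerve section in the values of the first days.

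When a peripheral nerve is cut, the axons beyond the cut degenerate, and the Schwann cells that wrapped them stop making myelin and become repair cells. Repair Schwann cells switch on the transcription factor c-Jun (Jun), the low-affinity neurotrophin receptor p75 (Ngfr) and trophic factors such as GDNF, the ligand of the receptor GFRα1 (Gfra1). SOX10 is the transcription factor that marks Schwann cells in all of these states. Muscle fibres also make neurotrophins: neurotrophin-4, encoded by Ntf5, is known to depend on the activity of the fibre. A whole muscle holds nerve twigs, fibres and other cells together, so in these bulk libraries fewer or more cells of a type and less or more RNA per cell cannot be told apart.

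Depth was even, at 14199902 to 17561584 fragments per library as recovered from the deposited values. The summed level of 5 myofibre markers was between 16660 and 34330 FPKM (fragments per kilobase of exon scaled to the library's mapped fragments), and that of 12 Schwann cell markers between 26.8 and 289. The summed level of 3 neuron markers did not exceed 0.0617 FPKM. Of the 5 retina markers, looked at because a protocol text of the labels names retinas, 4 were in the file and summed to at most 0.451. The genes lie, on GRCm38, at chr2:109674700-109727007 (Bdnf, plus strand), chr15:7810846-7837575 (Gdnf, plus), chr6:126101412-126166910 (Ntf3, minus), chr7:45413695-45417179 (Ntf5, plus), chr11:95568818-95587735 (Ngfr, minus), chr19:58235604-58455909 (Gfra1, minus), chr15:79154908-79165240 (Sox10, minus), chr16:42248442-42340651 (Gap43, minus) and chr4:95049034-95052222 (Jun, minus). Library a of 3 d stood apart from the other 3 libraries of its day (a median correlation of 0.966 with them, against 0.984 to 0.986), and leaving it out ended no call of the 9 genes. Libraries are named by day and by the letter or number of their column.

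For the genes that rose on 6 or 7 days, the bases upstream of the start show what the annotation gives at each gene. Of the 9 genes, 6 had RefSeq entries (14 in all, 7 of them for Bdnf), and the windows printed are those of Jun, Gdnf and Ngfr, which lie before the annotated gene on build GRCm38. Gap43, which also rose on 6 days, had no entry. Jun is read from chr4:95052223-95052472 on the minus strand, Gdnf from chr15:7809798-7810047 on the plus strand and Ngfr from chr11:95587736-95587948 on the minus strand. They run 5′ to 3′ toward the gene, with capitals for matches on either strand to TGANTCA (the AP-1 element that JUN and FOS proteins bind), TGACNTCA or TTACNTCA, variants bound by JUN and ATF proteins.
Jun: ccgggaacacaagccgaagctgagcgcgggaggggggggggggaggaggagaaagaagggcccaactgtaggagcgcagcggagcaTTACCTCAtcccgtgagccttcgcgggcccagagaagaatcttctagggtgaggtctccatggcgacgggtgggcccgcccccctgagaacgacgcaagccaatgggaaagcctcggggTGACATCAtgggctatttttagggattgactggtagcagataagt
Gdnf: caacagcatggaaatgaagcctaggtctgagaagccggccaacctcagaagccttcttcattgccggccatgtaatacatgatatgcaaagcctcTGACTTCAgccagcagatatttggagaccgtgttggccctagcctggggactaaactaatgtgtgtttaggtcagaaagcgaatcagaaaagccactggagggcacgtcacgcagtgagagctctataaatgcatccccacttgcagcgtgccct
Ngfr: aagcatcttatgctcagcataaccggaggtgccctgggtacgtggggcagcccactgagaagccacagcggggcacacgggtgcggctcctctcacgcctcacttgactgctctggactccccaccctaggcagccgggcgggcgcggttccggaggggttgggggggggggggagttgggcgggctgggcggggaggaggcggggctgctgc
Jun holds TGACATCA and TTACCTCA, and Gdnf holds TGACTTCA, while the Ngfr window holds no match to these letters. Of the 14 entries of the 9 genes, 11 hold no match, the other entry of Gdnf among them. Of 32851 RefSeq promoter windows, each the 250 bases before the RefSeq start, 7.49% hold TGACNTCA, 2.86% hold TTACNTCA and 6.75% hold TGANTCA. The Ngfr window has 70.9% G and C, against 61.2% for Jun and 50.8% for Gdnf.

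**Figure D1:**
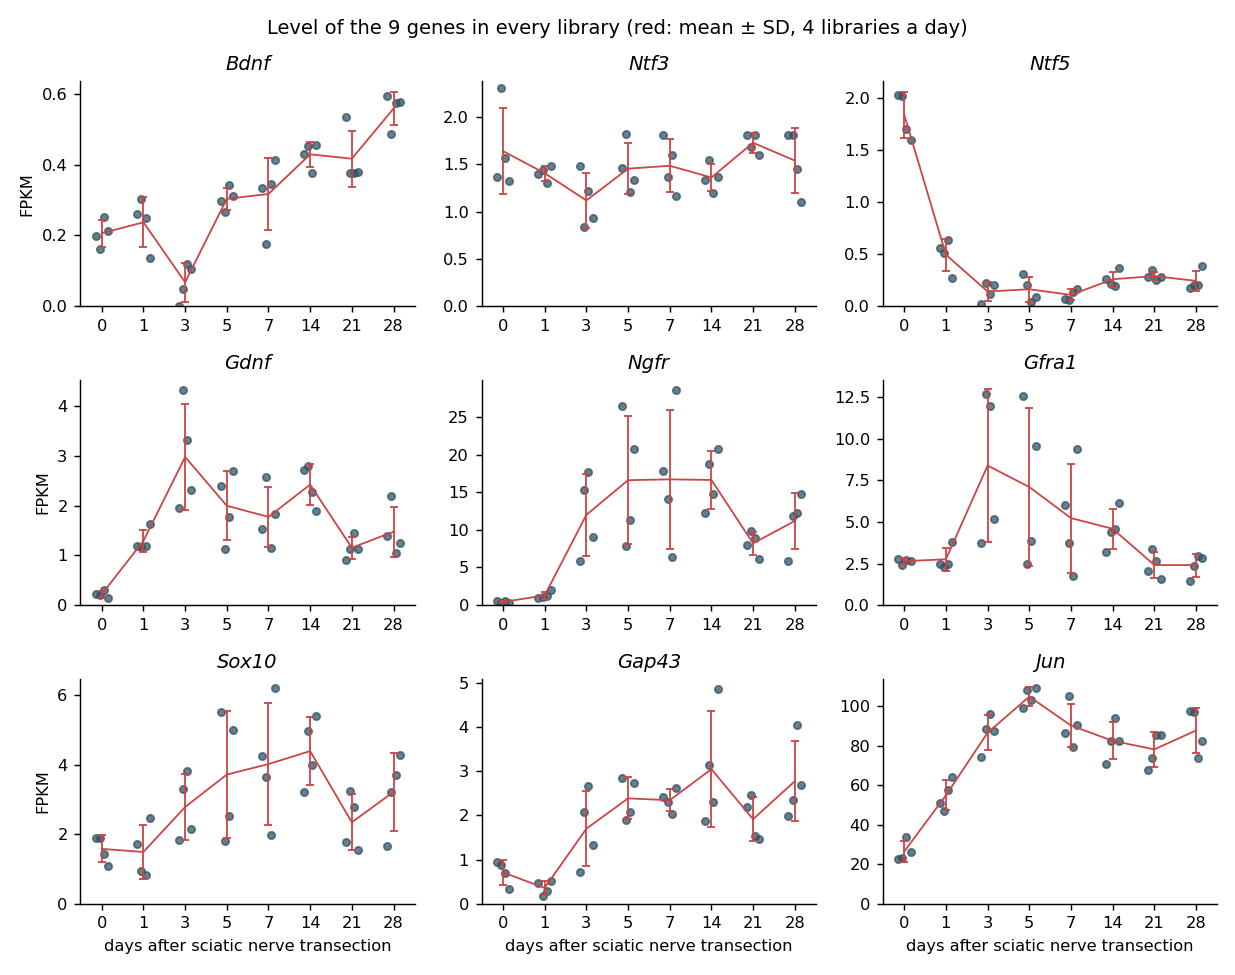
Level of each of the 9 genes in FPKM (vertical axis, linear from 0) by day after sciatic nerve transection (horizontal axis, evenly spaced). Each point is 1 library, and the red line joins the day means with the SD of 4 libraries. Ntf5 drops after 0 d in every library, Ntf3 stays between 0.837 and 2.31, and Ngfr, Gfra1 and Sox10 spread widely between the libraries of a day.

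Whether and when each gene moved was asked with limma on log2(FPKM + 1) over all genes, calling a gene at a Benjamini-Hochberg adjusted p under 0.05. At 1 d, 2 of the 9 genes were higher than at 0 d (Gdnf and Jun) and 1 was lower (Ntf5), where 29.4% of all genes tested were called, 20.4% higher and 9.01% lower. At 3 d, 5 were higher and 3 lower, against 43.3% of all genes (29% higher and 14.3% lower). The counts were 6 higher and 1 lower at 5 d, against 45.6% of all genes (36.1% and 9.52%), and 5 and 1 at 7 d, against 47.3% (37.1% and 10.1%). They were 6 and 1 at 14 d, against 47.3% (38% and 9.25%), 5 and 1 at 21 d, against 41.8% (31.7% and 10.1%), and 6 and 1 at 28 d, against 47.7% (37.8% and 9.85%). Over the 63 comparisons, 35 were higher and 9 lower. Between neighbouring days, 7 of the 9 genes changed from 1 to 3 d (30.9% of all genes called), 5 higher and 2 lower, and after that only Bdnf from 3 to 5 d (23.8%) and Gdnf from 14 to 21 d (1.61%) passed. The steps from 5 to 7 d, 7 to 14 d and 21 to 28 d, with 1.96%, 2.54% and 0.476% of all genes called by limma at the adjusted threshold, held no call of these genes.

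The FPKM scale itself moved with the day. The median change from 0 d of genes with a mean of at least 1 FPKM was 0.12 on the log2 scale at 1 d, 0.20 at 3 d, 0.24 at 21 d and 0.30 to 0.32 on the other days, while mitochondrial transcripts took 14.5% to 18.2% of fragments at 0 d and 6.7% to 13.5% from 3 d on. After median-ratio scaling these medians lay between −0.02 and 0.03, and the share of higher genes among those called fell from 67% to 80.4% over the days to 45.4% to 50.2%. A change of a gene is therefore read against this shift, and calls of the 9 genes that median-ratio scaling ended or added are given with their values after it. Counts of list genes after this scaling are set beside the split of all called genes into higher and lower, as the share called is not given here.

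**Figure D2:**
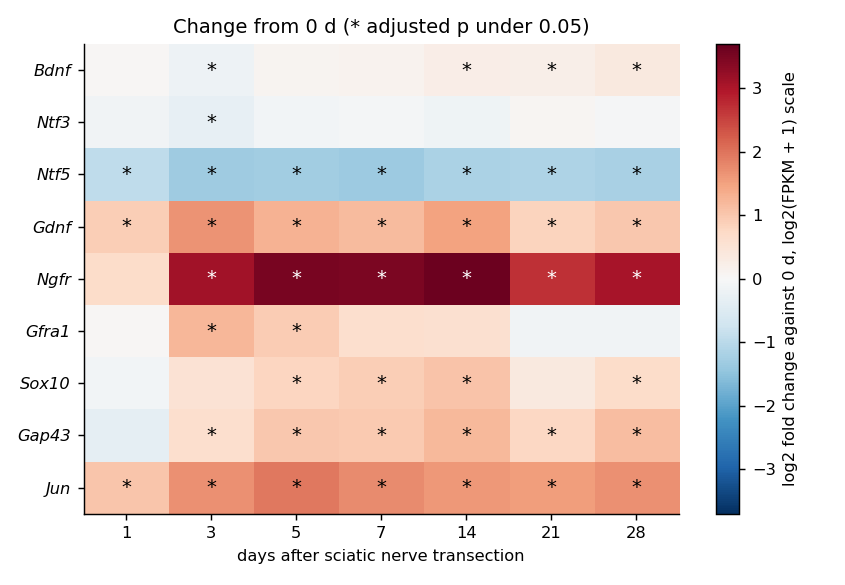
Change of each of the 9 genes from 0 d on the log2(FPKM + 1) scale, by day after transection. Red is higher and blue lower, and an asterisk marks an adjusted p under 0.05. Gdnf and Jun are higher and Ntf5 is lower on all 7 days, and Ngfr and Gap43 are higher from 3 d on.

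Among the ligands, Ntf5 (neurotrophin-4, a ligand of the receptor TrkB) fell within the first day. It stood at 2.03, 2.02, 1.70 and 1.59 FPKM in the 0 d libraries and at 0.557, 0.515, 0.632 and 0.274 at 1 d. No later library exceeded 0.387 FPKM, and the lowest, library a of 3 d, held 1 fragment of the gene. The 0 d libraries thus lay above all 28 others. The change from 0 d was −0.93 (SE 0.08, adjusted p = 2.93e-10) at 1 d and −1.31 (adjusted p = 5.44e-14) at 3 d, with a further fall of 0.39 between 1 and 3 d (adjusted p = 0.000326). As a ratio of mean FPKM the level was 3.72-fold lower at 1 d, 16.8-fold lower at 7 d and 6.34-fold lower at 21 d. After 3 d no step between neighbouring days passed the test. The summed level of the 5 myofibre markers was 30590 to 34330 FPKM at 0 d, 28480 to 32500 at 1 d and 16660 to 23240 from 3 d on, and its part in this result was not tested.

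Gdnf, the founding ligand of the family that signals through GFRα receptors and RET, moved the other way. The 0 d libraries held 0.230, 0.201, 0.303 and 0.137 FPKM, from 8 to 17 fragments each, and the 1 d libraries 1.19, 1.17, 1.18 and 1.63. At 3 d the values were 1.96, 4.33, 3.33 and 2.32. Every library after 0 d, from 0.907 FPKM upward, lay above every 0 d library. The mean was 5.94-fold higher at 1 d, 13.7-fold at 3 d, 11.2-fold at 14 d and 5.30-fold at 21 d. On the log2(FPKM + 1) scale the change was 0.91 (SE 0.17, adjusted p = 0.000141) at 1 d and 1.67 (adjusted p = 3.79e-09) at 3 d, and the step from 1 to 3 d was 0.76 (adjusted p = 0.00097). The step from 14 to 21 d was −0.67 with an adjusted p of 0.0468, which 19 of the 32 single-library omissions moved past the threshold (0.0287 to 0.154 over all of them). It was also lost after median-ratio scaling (−0.60, adjusted p = 0.0561), with a pseudocount of 0.1 (adjusted p = 0.0507) and with no filter on low values (adjusted p = 0.0735). Because 0 d rests on few fragments, the folds carry a wide counting error.

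Bdnf (brain-derived neurotrophic factor, the other TrkB ligand) was near the lower limit of detection throughout, at 0 to 63 fragments a library. The 0 d libraries held 0.198, 0.162, 0.253 and 0.213 FPKM. At 3 d they held 0, 0.0481, 0.119 and 0.105, all below the 0 d range, and at 28 d 0.594, 0.488, 0.574 and 0.578, all above it. Bdnf was lower at 3 d, by −0.18 (SE 0.05, adjusted p = 0.00856), and higher by 0.24 at 14 d (adjusted p = 0.000428), by 0.23 at 21 d (adjusted p = 0.000896) and by 0.37 at 28 d (adjusted p = 1.73e-06). The mean at 28 d was 2.71-fold that of 0 d. With a pseudocount of 0.1 in place of 1, the changes of these 4 days were −0.93, 0.79, 0.75 and 1.11. On the scale with a pseudocount of 1 none of the 4 exceeded 1.5-fold, so that limit ended all of these calls. The step from 1 to 3 d was −0.21 (adjusted p = 0.00287), and the next, from 3 to 5 d, was 0.29 (adjusted p = 0.000183). The 5 d libraries, at 0.266 to 0.342, all lay above the 0 d range too, but the change of 0.11 had an adjusted p of 0.0957, and 0.027 after rescaling to TPM or 0.0269 in a fit of the 2 days alone. The change at 7 d was 0.12 (adjusted p = 0.0612), and 0.18 (adjusted p = 0.00684) without library b of that day or 0.31 (adjusted p = 0.0185) after rescaling to TPM. Exons of Bdnf overlap the antisense gene Gm45346 over 896 bases, and whether the counting used strand is not given in the sources used here.

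Ntf3 (neurotrophin-3, the ligand of TrkC) passed on 1 of the 7 days. It stood at 1.36, 2.31, 1.57 and 1.32 FPKM at 0 d, and the 32 libraries together ran from 0.837 to 2.31. It was lower at 3 d, at 1.49, 0.837, 1.22 and 0.934 FPKM, with a change of −0.31 (SE 0.11, adjusted p = 0.0232) and ranges that overlapped. This call was lost without library 2 of 0 d (−0.20, adjusted p = 0.151), library b of 3 d (−0.25, adjusted p = 0.0996) or library d of 3 d (−0.27, adjusted p = 0.0747). It was also lost after rescaling to TPM (−0.30, adjusted p = 0.111) and in a fit of the 2 days alone (adjusted p = 0.148). Median-ratio scaling kept it (−0.46, adjusted p = 0.00339) and added lower calls of −0.34 at 5 d (adjusted p = 0.0327), −0.31 at 7 d (adjusted p = 0.0461) and −0.39 at 14 d (adjusted p = 0.0129), while TPM gave 0.027 at 5 d, 0.053 at 7 d and 0.072 at 28 d, none of them called.

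Among the receptors, Ngfr showed changes of up to 3.63 on the log2(FPKM + 1) scale. It was at 0.584, 0.311, 0.475 and 0.256 FPKM at 0 d and at 0.920, 1.02, 1.15 and 2.04 at 1 d. At 3 d it reached 5.87, 15.3, 17.8 and 9.06, and at 7 d 17.8, 14.1, 6.45 and 28.6. All 28 libraries after 0 d lay above the 0 d range, by 3.15-fold in the mean at 1 d, 29.5-fold at 3 d, 41.1-fold at 7 d and 27.5-fold at 28 d. The change at 1 d, 0.68 (SE 0.35), had an adjusted p of 0.166, although the ranges were apart (exact permutation p = 0.0286, two-sided, the smallest that 4 against 4 libraries allow). It passed with a pseudocount of 0.1 (1.43, adjusted p = 0.00625), after rescaling to TPM (1.12, adjusted p = 0.0285) and in a fit of the 2 days alone (adjusted p = 0.0174). It did not pass after median-ratio scaling (0.64, adjusted p = 0.134), with limma-voom on recovered fragments (1.65, adjusted p = 0.28) or under the other filters (adjusted p = 0.12 and 0.242). From 3 d to 28 d the changes were 3.11, 3.51, 3.50, 3.63, 2.70 and 3.06, with adjusted p-values from 1.24e-09 to 3.22e-07. The step from 1 to 3 d was 2.43 (adjusted p = 2.89e-06), and no later step passed.

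Gfra1, the receptor subunit that binds GDNF, was level at 0 d, with 2.80, 2.40, 2.73 and 2.63 FPKM, and at 1 d with 2.50, 2.27, 2.47 and 3.79. At 3 d the libraries held 3.76, 12.7, 12.0 and 5.17, all above the 0 d range, and at 5 d 12.6, 2.45, 3.85 and 9.56. At 28 d they were back at 1.44, 2.37, 2.97 and 2.84. The change was 1.22 (SE 0.37, adjusted p = 0.0083) at 3 d and 0.94 (adjusted p = 0.0398) at 5 d. The call at 5 d was lost after median-ratio scaling (0.64, adjusted p = 0.145) and without any 1 of 6 libraries, namely the 4 of 0 d (adjusted p = 0.0603, 0.0772, 0.0618 and 0.0668 for libraries 1 to 4) and libraries a (0.195) and d (0.142) of 5 d. It was also lost with limma-voom (adjusted p = 0.0549), with no filter (0.0657) and in a fit of the 2 days alone (0.103). The step from 1 to 3 d was 1.19 (adjusted p = 0.0143), and 0.96 and 0.99 (adjusted p = 0.0695 and 0.0639) without library b or c of 3 d, and a fit of the 2 days alone gave an adjusted p of 0.0574. At 7 and 14 d the changes of 0.61 and 0.60 did not pass (adjusted p = 0.189 and 0.201), the former passing without library c of 7 d (0.95, adjusted p = 0.036) and the latter in a fit of the 2 days alone (adjusted p = 0.0111). At 21 and 28 d they were −0.12 and −0.12 (adjusted p = 0.837 and 0.826). Gfra1 overlaps the antisense gene Gm16277 over 416 bases.

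Sox10 stood at 1.89, 1.89, 1.44 and 1.09 FPKM at 0 d and at 3.21, 4.96, 3.99 and 5.41 at 14 d, the day of its highest mean and one of those on which no library reached into the 0 d range. It was higher at 7 d by 0.90 (SE 0.28, adjusted p = 0.00863) and at 14 d by 1.06 (adjusted p = 0.00244). The change was 0.80 at 5 d (adjusted p = 0.0204) and 0.68 at 28 d (adjusted p = 0.0473). The call at 7 d was lost without library d of that day (0.71, adjusted p = 0.0511). The call at 5 d was lost after median-ratio scaling (0.54, adjusted p = 0.103) and without library 4 of 0 d (adjusted p = 0.0653), library a of 5 d (0.0951) or library d of 5 d (0.083), and a fit of the 2 days alone gave 0.0515. The call at 28 d was lost after scaling (0.43, adjusted p = 0.2), with no filter (0.0756), with limma-voom (0.0563) and in 15 of the 32 single-library omissions, with adjusted p-values of up to 0.142. The change of 0.53 at 3 d did not pass (adjusted p = 0.133), nor did that of 0.36 at 21 d (adjusted p = 0.339).

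Gap43, a growth-cone protein of regenerating axons that Schwann cells without axons also make, was at 0.938, 0.880, 0.688 and 0.331 FPKM at 0 d and at 0.462, 0.171, 0.285 and 0.517 at 1 d. The change at 1 d was −0.32 (adjusted p = 0.276). At 5 d it held 2.85, 1.89, 2.07 and 2.73 FPKM, and from that day on all 20 libraries, at 1.47 or more, lay above the 0 d range. The change was 0.62 (SE 0.21, adjusted p = 0.0151) at 3 d and 0.99 (adjusted p = 0.000203) at 5 d. It was 1.20 at 14 d (adjusted p = 1.59e-05) and 1.13 at 28 d (adjusted p = 3.88e-05), and the step from 1 to 3 d was 0.94 (adjusted p = 0.000596). The call at 3 d was lost without library 4 of 0 d (adjusted p = 0.0686) or library b (0.0564) or c (0.0892) of 3 d, and in a fit of the 2 days alone (0.0921).

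Jun, the AP-1 subunit c-Jun, had the highest FPKM, which is a level per length, of the 9 genes in every library. It stood at 22.7, 23.1, 33.7 and 26.4 FPKM at 0 d, at 50.8, 46.9, 57.7 and 64.0 at 1 d and at 74.5, 88.2, 95.8 and 87.5 at 3 d. At 5 d it reached 98.9, 108, 103 and 109, and from 7 d to 28 d it lay between 67.8 and 105. No library after 0 d reached down into the 0 d range. The change was 1.03 (SE 0.12, adjusted p = 7.62e-08) at 1 d, 1.68 (adjusted p = 1.59e-12) at 3 d and 1.96 (adjusted p = 8.29e-14) at 5 d, with a step of 0.65 from 1 to 3 d (adjusted p = 7.75e-05). After median-ratio scaling these were 0.85, 1.46 and 1.58. The exon of Jun overlaps the antisense gene Junos over 232 bases.

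How the genes varied among the libraries of 1 day was looked at after the data were seen, as deviations from the day mean on the log2(FPKM + 1) scale over all 32 libraries. The deviations of Ngfr and Gfra1 had a Pearson correlation of 0.96, and those of Sox10 correlated at 0.92 with Ngfr, at 0.89 with Gfra1 and at 0.70 with Gap43. They also correlated at 0.92 with Cdh19 and at 0.69 with Erbb3, Schwann cell markers. The values within a library share its depth and scaling, and genes of other cell types correlated with Sox10 at 0.52 (Pdgfra, fibroblasts), 0.50 (Pecam1, endothelium), 0.47 (Adgre1, macrophages) and 0.33 (Acta1, myofibres). Gap43 correlated at 0.67 with Adgre1, 0.63 with Pecam1 and 0.61 with Pdgfra, about as closely as with Sox10, and Ngfr and Gfra1 at 0.66 and 0.67 with Pdgfra and at 0.61 and 0.62 with Adgre1. Jun was at 0.08 with Sox10 and 0.17 with Ngfr, and Bdnf, Ntf3 and Ntf5 were likewise low, at −0.05, −0.22 and 0.17 with Sox10. The deviations of Jun correlated at −0.84 with the share of mitochondrial fragments in the library, and those of Gdnf at −0.54 with that share and at 0.51 with Sox10. What part these shares play in the results was not tested. Without library a of 3 d, the correlation of Ngfr with Gfra1 was 0.95 and that of Jun with the mitochondrial share −0.83.

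**Figure D3:**
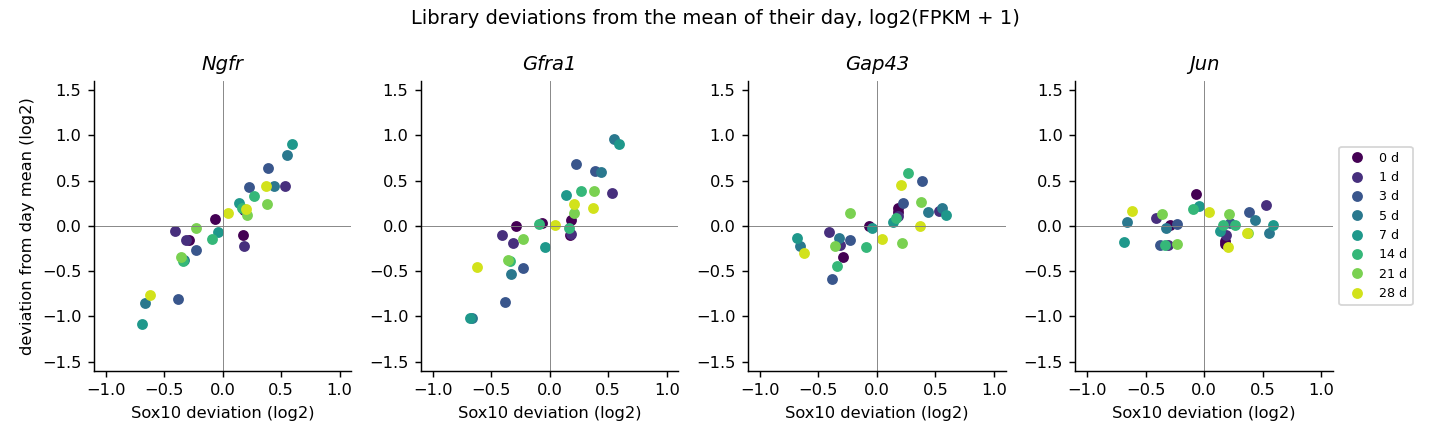
Deviation of each library from the mean of its day on the log2(FPKM + 1) scale, with Sox10 on the horizontal axis and Ngfr, Gfra1, Gap43 or Jun on the vertical axis. Points are the 32 libraries, coloured by day. Ngfr and Gfra1 follow Sox10 (0.92 and 0.89), Gap43 does so less closely (0.70), and Jun lies flat (0.08).

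Since Sox10 marks the Schwann cells of a library, Ngfr, Gfra1, Gdnf, Gap43 and Jun were also divided by Sox10 of the same library, a ratio likewise chosen after the data were seen. Ngfr per Sox10 was 0.259 ± 0.0754 (SD, n = 4) at 0 d, 0.964 ± 0.378 at 1 d and 4.17 ± 0.680 at 3 d, and then lay between 3.49 and 4.44 in the mean to 28 d. The ratios of 14 d ran from 3.69 to 3.85, a coefficient of variation of 1.81%, where Ngfr itself varied by 23.3%, and at 5 d the ratio varied by 6.09% and Ngfr by 51.4%. At 21 d it varied by 18.3%, close to the 19.0% of Ngfr. Every ratio after 0 d lay above all ratios of 0 d on each of the 7 days (exact permutation p = 0.0286, the smallest possible, and 0.0435 adjusted over 35 tests of 5 genes). The same held with Erbb3 or Cdh19, other Schwann cell genes, in place of Sox10, where the mean log2 change at 3 d was 3.46 or 3.24, against 4.04 with Sox10. From 3 d on no Ngfr value was under 5.84 FPKM and none at 0 d above 0.584, while Sox10 ran from 0.814 to 6.20 over all libraries. Division by Sox10 could not close that gap, so from 3 d on the separation of these ratios was fixed in advance and is a description. At 1 d the divisors themselves had changes of −0.09 (Sox10), 0.05 (Erbb3) and −0.51 (Cdh19), none of them called, and the ratio to Erbb3, the one that was not lower, changed by 1.57 on the log2 scale (exact permutation p = 0.0286). Ngfr alone did not pass limma at 1 d.

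Gfra1 per Sox10 was 1.76 ± 0.503 at 0 d, 2.85 ± 0.796 at 3 d (exact permutation p = 0.0857), 1.05 ± 0.124 at 14 d, 1.04 ± 0.0716 at 21 d and 0.767 ± 0.0863 at 28 d. On the last 3 days all ratios lay below those of 0 d (−0.72, −0.73 and −1.17 on the log2 scale, exact permutation p = 0.0286, adjusted 0.0435), and so they did with Erbb3 and with Cdh19 as the divisor, but not with every divisor tried, so no direction is read from them. Gdnf per Sox10 was higher on all 7 days, at 0.141 ± 0.0473 at 0 d, 1.01 ± 0.400 at 1 d and 1.08 ± 0.179 at 3 d, though with Cdh19 as the divisor only the ratios of 1 and 3 d were apart from 0 d (2 of 7 days). Gap43 per Sox10 was 0.436 ± 0.0895 at 0 d and 0.913 ± 0.277 at 28 d, but with Erbb3 as the divisor only the ratios of 5 d were apart from 0 d (0.47 on the log2 scale at 28 d, exact permutation p = 0.0857), and with Cdh19 those of no day. Jun per Sox10 was above 0 d at 1 and 3 d (33.2 ± 8.51 at 3 d, against 17.9 ± 6.73), and at 3 d with neither of the other divisors.

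**Figure D4:**
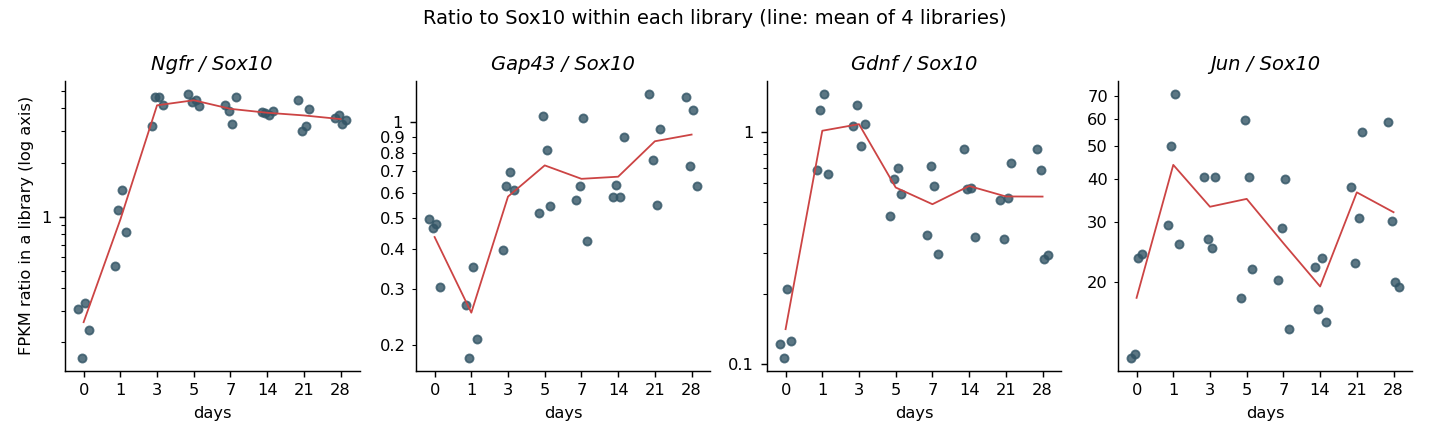
FPKM of Ngfr, Gap43, Gdnf and Jun divided by that of Sox10 in the same library, by day, on logarithmic vertical axes that differ between panels. Points are libraries and the red line joins the day means. The Ngfr ratio climbs from 0.259 to 4.17 by 3 d and then stays between 3.49 and 4.44, and the Gdnf ratio climbs from 0.141 to 1.01 within 1 d.

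The other genes of these pathways were taken from lists chosen with earlier results of these data known. Of 10 neurotrophin ligands, receptors and binding proteins, 7 were tested, and the other 3 were too low. The number higher was 0 at 1 d, 3 at 3 d (with 1 lower), 4 from 5 d to 21 d and 3 at 28 d. Over all genes 20.4% were higher at 1 d, 29% at 3 d and 31.7% to 38% on later days. The median change was 0.28 at 3 d and 0.82 at 14 d, beside 0.06 and 0.15 over all genes tested. Maged1, which binds p75, had values of up to 71.3 FPKM at 28 d, against 9.25 to 14.4 at 0 d (2.45, adjusted p = 7.01e-12). Bex1, another p75 partner, rose by 1.65 at 7 d (adjusted p = 2.43e-12) and had a change of 0.24 at 28 d (adjusted p = 0.092). Sort1 (sortilin) was lower at 3 d (−0.53, adjusted p = 0.000337) and higher from 5 d on (0.99 at 14 d, adjusted p = 2.96e-08). Ntrk2 (TrkB) was called on no day, with changes between −0.20 and 0.02. After median-ratio scaling, Bex3 (−0.53, adjusted p = 0.0442) and Nradd (−0.25, adjusted p = 0.0463) were lower at 1 d, Ntrk2 was lower at 7 d (−0.38, adjusted p = 0.0446) and at 21 d (−0.38, adjusted p = 0.0473), Sort1 no longer passed at 5 d (0.18, adjusted p = 0.143) and Bex1 no longer at 21 d (0.25, adjusted p = 0.198).

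Of 9 other GDNF family ligands and receptors, all tested, 2 were higher and 3 lower at 3 d, and 4 higher and 2 lower at 14 d, with medians of −0.15 and 0.23. Over all genes 29% were higher and 14.3% lower at 3 d and 38% and 9.25% at 14 d, with medians of 0.06 and 0.15. After median-ratio scaling the counts of the list were 2 higher and 4 lower at 3 d and 3 higher and 2 lower at 14 d. Of all genes called after that scaling, 49.2% were higher at 3 d and 49.4% at 14 d. Ret, the signalling receptor that GFRα1 works with, fell from 2.43 to 2.93 FPKM at 0 d to 1.12 to 2.02 at 1 d (−0.54, adjusted p = 0.00179) and was lower on all 7 days, by −0.94 at 21 d (adjusted p = 9.3e-07). Nrtn (neurturin) was lower from 3 d on (−1.15 at 14 d, adjusted p = 1.05e-06), and Artn (artemin) higher from 3 d on (0.67 at 14 d, adjusted p = 5.42e-07). Ncam1, an adhesion molecule and alternative GDNF receptor that denervated fibres also make, went from 0.379 to 0.577 FPKM at 0 d to 8.90 to 10.6 at 28 d (2.87, adjusted p = 1.11e-16).

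Of 19 repair Schwann genes, 18 were tested, and 2 were higher at 1 d, 11 at 3, 5 and 7 d, 12 at 14 and 28 d and 9 at 21 d. The lower call on this list was Egr1 at 5 d, and after median-ratio scaling 1 gene was also lower at 14, 21 and 28 d, beside 11, 8 and 12 higher. Of all genes called after that scaling, 49.4% were higher at 14 d, 48.9% at 21 d and 50.1% at 28 d. With the FPKM as deposited, 20.4% of all genes were higher at 1 d, 29% at 3 d and 38% at 14 d. Medians were 0.48 at 3 d and 0.68 at 14 d, beside 0.06 and 0.15 over all genes. Sox2, a transcription factor of immature and repair Schwann cells, had 0.151 ± 0.116 FPKM at 0 d and 2.23 ± 0.765 at 3 d (1.46, adjusted p = 4.18e-05). Olig1 was higher from 3 d on (1.81 at 14 d, adjusted p = 7.06e-09), and Shh (sonic hedgehog) on 2 of the 7 days, by 1.32 at 3 d (adjusted p = 0.00664) and by 1.14 at 5 d (adjusted p = 0.0174). Tgfb1, also made by macrophages and fibres, rose from 5 d to 2.20 at 28 d (adjusted p = 5.57e-11). The 4 macrophage markers were all higher from 3 d on, where 29% to 38% of all genes were. After median-ratio scaling 3 of them were higher at 3 d, where 49.2% of all genes called were. Their summed level was 17.0 to 22.8 FPKM at 0 d and 122 to 197 at 3 d. Their part in these results was not tested.

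Of 13 AP-1 and injury transcription factors, 8 were higher at 1 d, 9 at 3 d and 5 to 7 on later days, and none was lower by limma at the adjusted threshold with the FPKM as deposited. After median-ratio scaling 1 was lower at 3 d, 3 at 5 and 21 d, 2 at 14 d and 1 at 7 and 28 d, with 8 higher at 1 d, 9 at 3 d, 6 at 14 d and 5 on the other days. Of all genes called after that scaling, 45.4% to 50.2% were higher over the days. With the FPKM as deposited, 20.4% of all genes were higher at 1 d, 29% at 3 d and 36.1% at 5 d, so the share of the list at 5 d was near that of all genes. The median change was 0.66 at 1 d and 0.83 at 3 d, beside 0.03 and 0.06 over all genes. Junb went from 7.34 ± 0.544 FPKM at 0 d to 76.2 ± 16.0 at 1 d (3.19, adjusted p = 1.4e-15) and 27.3 ± 4.96 at 28 d. Atf3, a factor induced by nerve injury, went from 2.14 ± 0.335 to 21.7 ± 6.73 at 1 d (2.82, adjusted p = 1.07e-11) and was at 18.9 ± 1.53 at 28 d. Fos rose by 1.65 at 1 d (adjusted p = 0.000291), was still higher by 1.05 at 3 d (adjusted p = 0.0117), and had changes of 0.02 to 0.37 thereafter. Myc reached 14.9 ± 1.58 FPKM at 3 d, from 1.88 ± 0.455 (2.47, adjusted p = 2.69e-14).

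**Figure D5:**
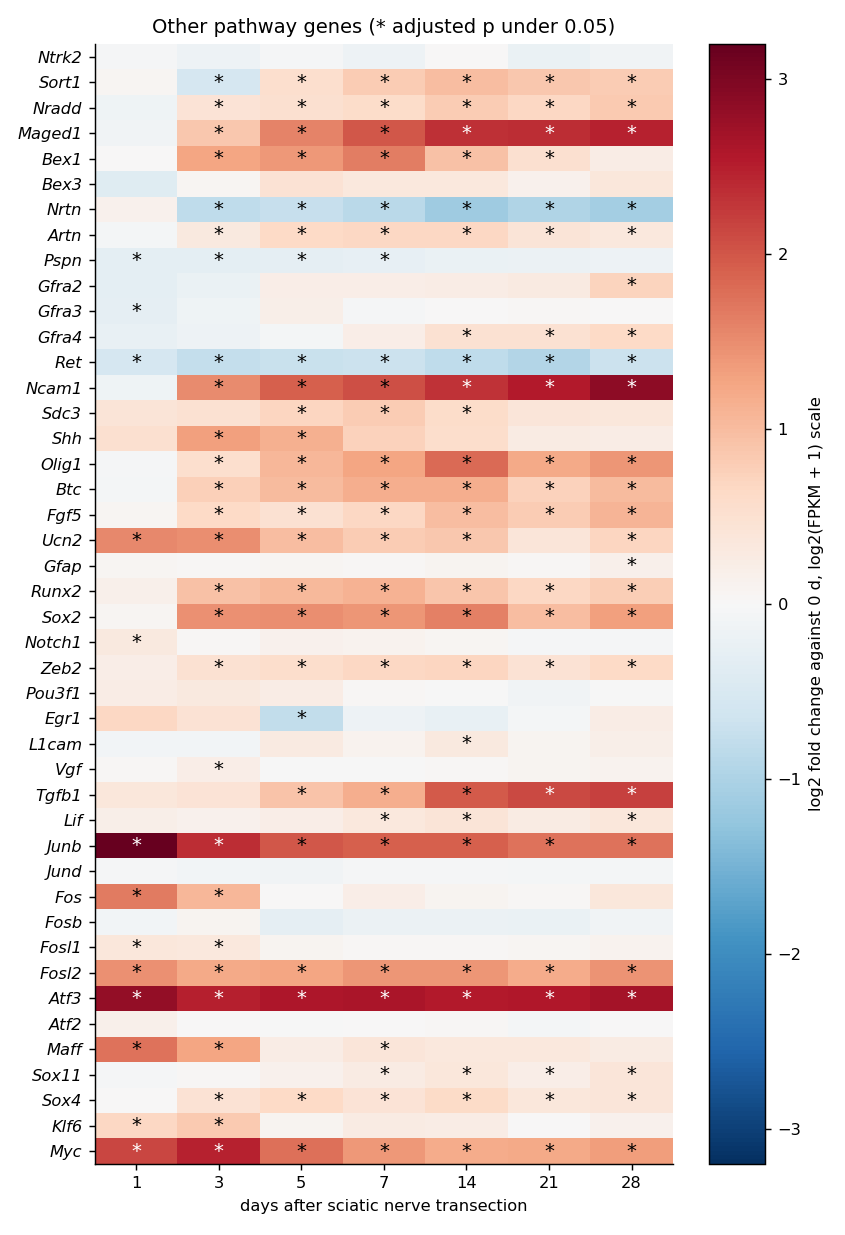
Change from 0 d on the log2(FPKM + 1) scale of tested genes of the neurotrophin, GDNF family, repair Schwann and AP-1 lists, from top to bottom in that order. Asterisks mark an adjusted p under 0.05. Junb and Atf3 are at 3.19 and 2.82 at 1 d, Ncam1 and Maged1 climb to 2.87 and 2.45 at 28 d, and Ret and Nrtn are blue from 3 d on.

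The Schwann cell markers did not move together. Of the 12 Schwann cell markers, 3 were higher and 5 lower at 3 d, and the same numbers held at 14 and 28 d. After median-ratio scaling 2 were higher and 5 lower at 28 d, where 50.1% of all genes called were higher. With the FPKM as deposited, 29% of all genes were higher and 14.3% lower at 3 d, and 38% and 9.25% at 14 d, so the share of higher markers did not exceed that of all genes. Mbp (−1.83, adjusted p = 1.65e-05), Prx (−2.21, adjusted p = 2.82e-08) and Pmp22 (−1.77, adjusted p = 7.37e-06), genes of the myelin sheath, were lower at 3 d. Cdh19, a cadherin of Schwann cell precursors, was higher from 3 d on (1.87 at 5 d, adjusted p = 8.04e-05), except that after median-ratio scaling it did not pass at 21 d (0.80, adjusted p = 0.0608), and so was Erbb3, the receptor for neuregulin (1.09 at 14 d, adjusted p = 1.81e-06).

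The genes whose level over the 32 libraries followed each member most closely were taken from 2999 tested genes with day means spanning at least 1 on the log2 scale. Points share the library and its day, so these Pearson correlations of log2(FPKM + 1) are a description. For Ngfr they were Sema4f (0.97), Runx2 (0.97) and Tnc (0.96), for Gfra1 Shh (0.92), Syt4 (0.90) and Hmga2 (0.86), and for Sox10 Itgb8 (0.93), Cdh19 (0.92) and Col28a1 (0.92). For Gap43 they were Cyb5r3 (0.92), Serinc5 (0.91) and Apoe (0.91), and for Jun Osbpl8 (0.96), Tmem214 (0.95) and Samd8 (0.95). Gdnf was followed by Ctps2 (0.90), Xbp1 (0.90) and Cttn (0.88), and Bdnf by Fgf11 (0.90), Cenpx (0.90) and Car3 (0.89). Ntf5 ran with Pgam2 (0.96), a glycolytic enzyme of muscle at 1558 FPKM in the mean of 0 d, with AC122818.4 (0.96) and with Kcng4 (0.95). Ntf3 had no close companion, with Art5 first at 0.60. As deviations from the day mean, the companions correlated at 0.81 to 0.92 for Ngfr, Gfra1 and Sox10 and at 0.51 to 0.75 for Gap43 and Jun. They did so at 0.35 to 0.64 for Gdnf and Bdnf, 0.17 to 0.46 for Ntf5 and 0.32 to 0.36 for Ntf3.

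Ordered by their day means, neighbouring days mostly overlapped. Ntf5 ran from 0 d down to 1 d with no overlap, and then through 21, 14, 28, 5, 3 and 7 d with overlap at each of the other 6 steps. Jun ran from 5 d through 7, 28, 3, 14 and 21 d to 1 d and 0 d, and Ngfr from 7 d through 14, 5, 3, 28 and 21 d to 1 d and 0 d, both with gaps only above 1 d and above 0 d. Gdnf had a gap only above 0 d, and Bdnf a gap below 28 d and one above 3 d. For Gfra1, Sox10, Gap43 and Ntf3 all 7 neighbouring pairs overlapped.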

How the data were processed

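RNA-seq of 32 GAS libraries was used. Per the labels, processing used CASAVA, HISAT2 2.1.0 and DESeq2 with GRCm38, while counter, annotation and strand setting are not given in the sources used here. The labels and the paper name different library kits. The authors deposited FPKM values, 1 per gene and column. Column names give the day, except the 4 C columns, which were taken as 0 d by elimination, but no animal, and p-values measure the spread between these columns. Libraries of a day differed beyond counting noise (chi-square per degree of freedom 3.76 to 60.4 over 48 pairs).

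Merged exon lengths of GENCODE M21 matched 33356 genes and gave whole fragments (within 0.05) for 99.3% to 99.4% of values under 200 fragments. Here log2(FPKM + 1) of genes with at least 0.1 FPKM in at least 4 libraries was fitted with limma 3.58.1 (R 4.3.3, eBayes with trend, all 32 libraries), each day against 0 d and against the day before. Exact permutation tests were two-sided. On simulated data for 3 d, 160 of 200 changed genes were recovered and 8 of 19382 genes tested were false calls. The simulation gave all genes the same dispersion, changed no gene with few fragments at 0 d and put in no shift of scale. These rates therefore do not carry over to genes that vary widely within a day or have few fragments. Python 3.11.15 served the rest. Promoters are RefSeq GRCm38 sequences.

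The 9 genes and all lists were chosen with earlier results of these data known. Named are the 9 genes, called list genes with large changes, the other list genes where their call is given, and the 3 genes with the highest correlation to each member, without Gm and Rik genes. Some list genes, 1 of them also tried as a divisor, are not reported here.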

Additional observations from a re-analysis of the deposited data

Results flagged for a closer look

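In 4 of 72 groups of 4 libraries (9 genes on 8 days), 1 library lay far from the other 3 by Dixon's criterion, which chance meets in about 1 of 20 groups. Bdnf had 0.536 FPKM in library a of 21 d, with the others at 0.375 to 0.381. Gdnf had 1.63 FPKM in library d of 1 d, with the others at 1.17 to 1.19, and in that library Gfra1 had 3.79 FPKM, with the others at 2.27 to 2.50. Ntf5 had 0.387 FPKM in library d of 28 d, with the others at 0.180 to 0.205. Without the library concerned, the calls of these 4 genes on these days against 0 d stayed on the same side of the threshold, and the sign turned for Gfra1 at 1 d (−0.093, not called).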

How the results depend on the processing

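Of 630 single-gene values under alternatives of pseudocount, filter, scaling, model, samples and threshold, 594 kept direction and call, 21 lost the call, 10 gained it and 5 changed sign. Of 2304 values with 1 library left out, 2240 kept both, 52 lost the call, 2 gained it and 10 changed sign. None of the values that changed sign was called. They were Ntf3 at 21 d (−0.13) and Gfra1 at 1 d (−0.11) after median-ratio scaling, and Ntf3 at 5, 7 and 28 d (0.027, 0.053 and 0.072) after rescaling to TPM. With 1 library left out, the ranges that crossed 0 were −0.17 to 0.017, −0.14 to 0.034 and −0.11 to 0.062 for Ntf3 at 5, 7 and 28 d, −0.093 to 0.091, −0.25 to 0.0044 and −0.20 to 0.032 for Gfra1 at 1, 21 and 28 d and −0.27 to 0.047 for Sox10 at 1 d. Over these omissions the counts of the 9 genes ran from 31 to 36 higher and from 8 to 9 lower. Median-ratio scaling ended higher calls of Gfra1 at 5 d and of Sox10 at 5 and 28 d, and added lower calls of Ntf3 at 5, 7 and 14 d. Requiring 1.5-fold left 1950, 4254, 4148, 4308, 4075, 3466 and 4049 genes called from 1 d to 28 d, in place of 6493, 9559, 10068, 10429, 10434, 9227 and 10518. The ratios were added after the data were seen. Among the ratios to Sox10 that were apart from 0 d, those of Gap43 at 5 and 14 d changed sign with Cdh19 as the divisor (−0.54 and −0.053). Of the ratios not apart, Gap43 changed sign at 3 d with both other divisors and at 1 and 7 d with Cdh19. Jun did so at 5, 7, 14 and 28 d with Cdh19, and Gfra1 at 1 d with Erbb3, at 3 d with Cdh19 and at 5 d with both (−0.21 and −1.24). No paired analysis was possible because the columns carry letters or numbers that no label ties to a sample. Genes under 20 fragments at 0 d, such as Gdnf, are limited by depth. The cause of these changes was not tested.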

Other observations

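Of 11 other trophic factors, all tested, 2 were higher and 3 lower than at 0 d at 3 d, where 43.3% of all genes were called, and 6 higher and 2 lower at 28 d, where 47.7% were. After median-ratio scaling these counts were 2 and 4 at 3 d and 3 and 3 at 28 d, where 49.2% and 50.1% of all genes called were higher. Cntfr, the receptor subunit for ciliary neurotrophic factor, went from 2.89 to 4.55 FPKM at 0 d to 13.8 to 16.4 at 1 d (1.78, adjusted p = 9e-11) and to 1.15 to 1.78 at 3 d (−0.95, adjusted p = 2.63e-06), and was higher again at 5 d (0.76, adjusted p = 6.93e-05). Its ranges at 1 d and 3 d lay on opposite sides of 0 d. Cntf itself was called on no day. Mstn, the growth inhibitor myostatin, fell from 34.7 to 53.6 FPKM at 0 d to 4.60 to 7.07 at 28 d (−2.75, adjusted p = 4.98e-13), and Vegfa, the vascular growth factor, from 46.5 to 71.2 to 15.7 to 18.7 (−1.68, adjusted p = 6.31e-10). Mdk (midkine) was higher from 5 d on (1.28 at 28 d, adjusted p = 2.67e-05).

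Of 6 neuregulin pathway genes, 3 were tested (Nrg2, Erbb2 and Erbb3), and all 3 were higher from 7 d on, where 31.7% to 38% of all genes were. Erbb2 did not pass at 21 d after median-ratio scaling (0.20, adjusted p = 0.221). Nrg2 had 0.130 ± 0.0376 FPKM (SD, n = 4) at 0 d, 0.141 ± 0.0932 at 3 d and 1.01 ± 0.118 at 5 d (0.83, adjusted p = 7.31e-06). Of 10 growth-associated genes, 8 were tested, with 2 higher and 1 lower at 3 d, where 29% of all genes were higher and 14.3% lower, so these counts were near those of all genes. Tubb3, a tubulin of neurons, was higher from 3 d on (1.99 at 3 d, adjusted p = 2.3e-06), while Stmn2, a growth-cone protein, was lower on all 7 days (−0.50 at 1 d, adjusted p = 0.00212).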
